A study of Mus musculus with 12 samples.

Results

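The E2F transcription factors and the retinoblastoma pocket proteins are described here as 10 genes, chosen by name: the activators E2f1, E2f2 and E2f3, the canonical repressors E2f4 and E2f5, the atypical repressors E2f7 and E2f8, and the pocket proteins Rb1, Rbl1 and Rbl2. All 10 were found among the 55421 genes of the count table, and all 10 were among the 18108 genes that passed the filter on low counts. RNA came from MOC2 cells, an established mouse oral squamous carcinoma line, in 12 cultures that form 4 groups of 3. Both derivatives belong to a study of extracellular vesicles (EVs) released by senescent cells: MOC2-25 is labelled EV-proficient, and MOC2-27 is labelled EV-deficient, vesicle release having been blocked genetically in that study. Each derivative was given the solvent DMSO or paclitaxel, a microtubule-stabilising taxane, at 600 nM for 48 hours, a treatment that the labels describe as inducing senescence. The labels name neither the gene that was altered nor how the derivatives were made, so each EV label stands for 1 derivative line and its altered gene could not be looked up. Nothing in the labels says that the 3 libraries of a group came from separate experiments, so p-values measure the spread between these libraries.

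E2F factors bind DNA with a DP partner (Tfdp1 or Tfdp2) and control the genes needed to enter S phase. Pocket proteins bind E2Fs and hold these genes off until cyclin-dependent kinases phosphorylate the pocket protein. Rb1 mainly restrains the activators, whereas Rbl1 and Rbl2 pair with E2f4 and E2f5, and in resting or arrested cells they join the MuvB core to form the DREAM repressor complex. E2f7 and E2f8 act without a DP partner or a pocket protein and are themselves E2F targets.

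Total counts ranged from 23263472 to 62955757 per library. The lowest total belonged to EV-proficient paclitaxel replicate 3, which also lay apart from its group on the second principal component. A count of 3 corresponded to 0.0492 to 0.121 CPM (counts scaled to a common library size), far below the lowest member value of 7.46 CPM. Epithelial markers fitted the label in part: Krt8, Krt18, Epcam and Cdh1 were above 385 CPM in all 12 libraries, while Krt5 was at 0 in 7 libraries and Trp63 at 0 in 3, with at most 0.171 and 0.180 CPM elsewhere. The sum of the 9 squamous carcinoma markers ranged from 5393 to 5822 CPM (EV-proficient DMSO) and 5624 to 6089 CPM (EV-deficient DMSO), and was lower, at 3697 to 4062 CPM and 3270 to 3376 CPM, under paclitaxel. The sum of 4 immune markers was 6.63 to 7.38 and 8.33 to 9.58 CPM under DMSO and 28.4 to 32.9 and 22.4 to 39.9 CPM under paclitaxel. Most of it was Cd68, while Cd3e was at 0 in 10 libraries and Adgre1 in 9. The 4 fibroblast markers summed to at most 7.83 CPM and the 2 endothelial markers to at most 3.35 CPM. Mitochondrially encoded RNA was 0.550 to 0.729% of counts under DMSO and 0.846 to 1.45% under paclitaxel. The part of these shifts in the changes described for E2F and pocket protein genes was not tested. In bulk RNA, fewer cells expressing a gene and less of its RNA per cell cannot be told apart.

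The EV labels did not separate the libraries in the same way in both treatments. A row that the authors added to the table for a dngfr sequence held 5.73 to 12.2 CPM in EV-proficient DMSO and 9.63 to 12.4 CPM in EV-deficient paclitaxel libraries. It held only 1.89 to 2.54 CPM in EV-deficient DMSO and 2.47 to 3.76 CPM in EV-proficient paclitaxel libraries. The second principal component grouped the libraries in the same crossed way. Groups are therefore named as labelled throughout. For the 10 genes, the average of both within-label effects, which does not depend on which derivative carries which label, and each paclitaxel group against the DMSO group of the other label are also given. For the gene lists around them, the average is given as counts.

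E2F binding sites in their own promoters make several of these genes part of the circuit they control, so promoter sequences are shown for members that moved in opposite directions. RefSeq promoter entries (250 bases before to 50 after the listed start, GRCm38.p6) were found for 7 of the 10 members, and none for E2f4, E2f5 and Rb1. The windows were searched on both strands for the E2F words TTCCCGC or TTCGCGC or TTGCCGC or TTGGCGC, which are held by 9.57% of the 32851 windows in the table. E2f2, E2f3, E2f7, E2f8 and Rbl1 each had at least 1 such word, and Rbl2 had none in its window. E2f2 and E2f3 each had 2 entries, and the second window of each held no E2F word. The window listed for E2f1 held no word either, but it lies over annotated transcript sequence and is not shown. The 250 bases upstream of the start are printed for E2f7, E2f8 and Rbl2, 5′ to 3′ on the gene's strand, with E2F words in capitals. E2f7 (chr10:110745189-110745438, plus strand) had 3 words, E2f8 (chr7:48881597-48881846, minus strand) had 1, and Rbl2 (chr8:91069807-91070056, plus strand) had none.
E2f7: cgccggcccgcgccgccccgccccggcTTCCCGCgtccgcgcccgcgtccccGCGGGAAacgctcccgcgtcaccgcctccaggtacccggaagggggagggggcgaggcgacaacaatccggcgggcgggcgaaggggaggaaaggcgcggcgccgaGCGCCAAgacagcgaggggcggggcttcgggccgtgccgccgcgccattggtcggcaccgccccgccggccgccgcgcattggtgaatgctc
E2f8: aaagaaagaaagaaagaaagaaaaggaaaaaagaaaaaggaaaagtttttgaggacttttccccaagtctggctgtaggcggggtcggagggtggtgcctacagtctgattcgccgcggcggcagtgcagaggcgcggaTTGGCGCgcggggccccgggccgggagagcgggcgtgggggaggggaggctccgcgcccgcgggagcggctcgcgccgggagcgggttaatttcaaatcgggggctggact
Rbl2: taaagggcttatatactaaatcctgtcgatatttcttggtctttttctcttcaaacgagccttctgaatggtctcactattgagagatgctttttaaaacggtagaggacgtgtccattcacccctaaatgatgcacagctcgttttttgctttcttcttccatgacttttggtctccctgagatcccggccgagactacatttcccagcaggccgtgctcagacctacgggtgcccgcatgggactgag

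For E2f2, E2f3 and Rbl1 the 30 bases around each match are shown in the same way. The E2f2 match began 41 bases after the start (chr4:136172294-136172323, plus strand). E2f3 had a match beginning 11 bases before its start (chr13:29986056-29986085, minus strand) and another 19 bases after it (chr13:29986027-29986056, minus strand). The Rbl1 match began 17 bases before the start (chr2:157204533-157204562, minus strand).
E2f2: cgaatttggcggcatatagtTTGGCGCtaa
E2f3, upstream match: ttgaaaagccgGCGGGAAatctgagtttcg
E2f3, downstream match: gcgggaggaccTTGGCGCgtaaaccgtatc
Rbl1: agaaggcgattTTCGCGCgctttgtcgcgg
The cell-cycle homology word TTTGAA (CHR), held by 17.9% of windows on either strand, was present in E2f3, E2f8 and Rbl2 and in the second E2f2 entry. The upstream part of that second E2f2 entry overlapped 46 coding bases of the gene. No E2F word overlapped a CHR word in these windows. The forkhead word GTAAACA, held by 3.65% of windows, was in no member window. These are matches of letters, not measured binding, and their relation to the direction of change was not tested.

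Under paclitaxel most E2F genes fell, E2f5 rose, and the pocket proteins Rb1 and Rbl2 rose while Rbl1 did not pass the test in either derivative. In the EV-proficient derivative 8 of 10 members passed the test (adjusted p under 0.05, edgeR quasi-likelihood test), against 58.2% of all genes tested. Of these, 3 were higher, against 31.1% of all genes, and 5 lower, against 27.1%. In the EV-deficient derivative 9 of 10 passed, against 62.9% of all genes: 3 were higher, against 32.4%, and 6 lower, against 30.5%. The median log2 fold change of the members was -0.27 and -0.76, beside medians of 0.052 and 0.075 over all genes tested. The drug changed most genes tested, so that a called member was by itself common.

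**Figure D1:**
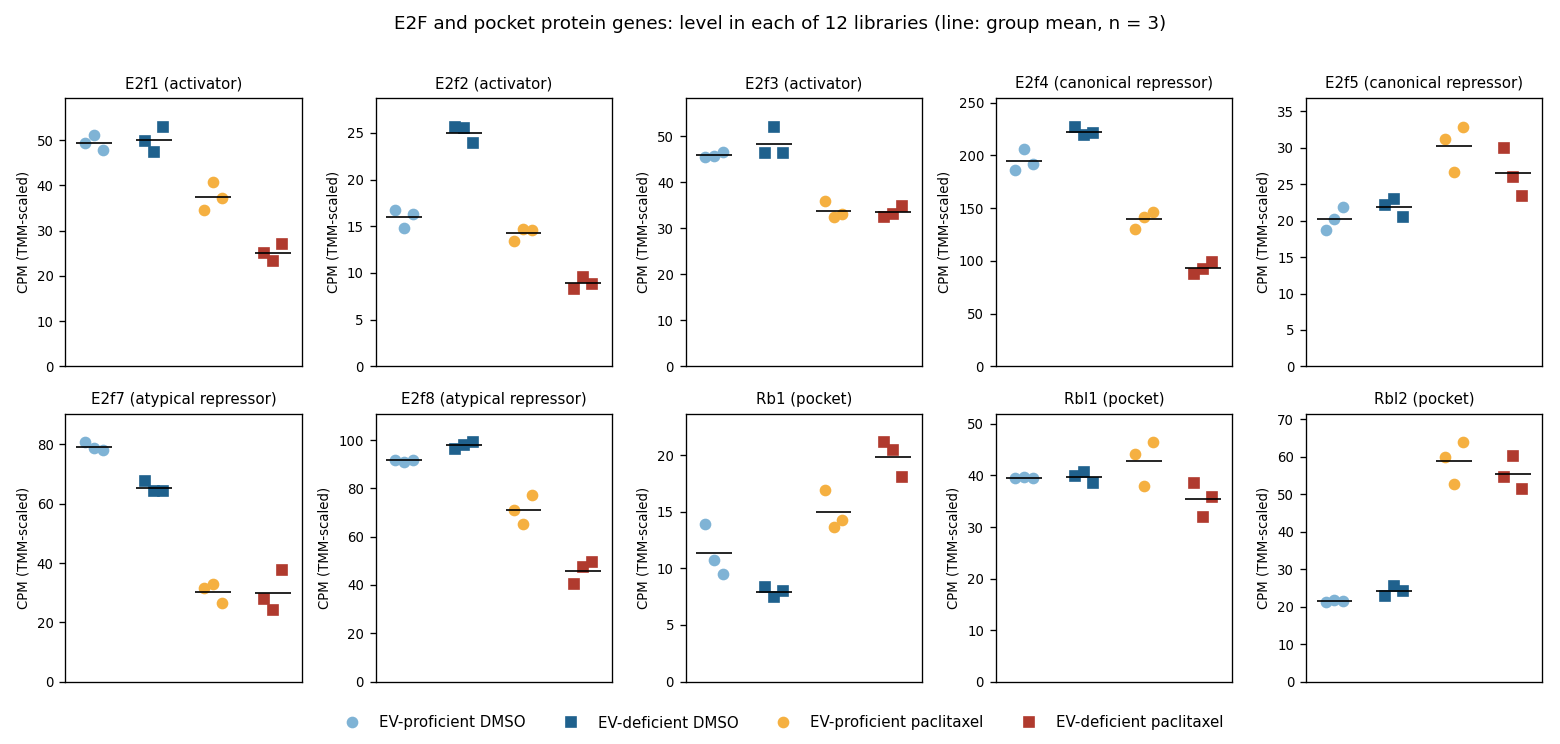
Level of each gene in CPM (TMM-scaled) in the 12 libraries, with each axis starting at 0. Points are libraries and lines are means of 3. E2f4 has the highest CPM in every group, and Rbl2 lies at 21.2 to 25.4 CPM in the 6 DMSO libraries and 51.3 to 63.9 CPM in the 6 paclitaxel libraries.

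E2f1 and E2f3 fell under paclitaxel in both derivatives, and E2f2 fell in the EV-deficient derivative and did not pass the test in the EV-proficient one. E2f1, which drives S-phase genes and can also promote apoptosis, measured 49.4, 51.2 and 47.8 CPM in EV-proficient DMSO libraries and 34.6, 40.8 and 37.1 CPM with paclitaxel. In the EV-deficient derivative it measured 49.9, 47.4 and 52.9 CPM and then 25.1, 23.2 and 27.1 CPM. All 6 paclitaxel libraries were below all 6 DMSO libraries, and the EV-deficient paclitaxel libraries were the lowest. E2f1 fell by 0.40 ± 0.078 (log2 fold change ± SE, adjusted p = 0.000172) in the EV-proficient and by 0.99 ± 0.079 (adjusted p = 4.37e-10) in the EV-deficient derivative.

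E2f2, an activator close to E2f1, was the least abundant E2F by CPM under paclitaxel. It measured 16.7, 14.9 and 16.3 CPM in EV-proficient DMSO and 13.5, 14.7 and 14.6 CPM in EV-proficient paclitaxel libraries. The EV-deficient libraries had 25.6, 25.5 and 23.9 CPM under DMSO and 8.24, 9.56 and 8.86 CPM under paclitaxel. The EV-proficient groups nearly touched, while in the EV-deficient derivative the groups stood far apart. The log2 fold change was -0.16 ± 0.094 in the EV-proficient derivative (adjusted p = 0.141), which passed the threshold only when EV-deficient paclitaxel replicate 2 was left out (-0.21). E2f2 fell by 1.49 ± 0.094 in the EV-deficient derivative (adjusted p = 1.14e-11).

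E2f3 codes for 2 protein forms from separate promoters, which counts per gene cannot separate. Its 6 DMSO libraries held 45.4 to 52.0 CPM (median 46.4) and its 6 paclitaxel libraries 32.5 to 35.9 CPM (median 33.1). The levels under paclitaxel were alike in both derivatives. E2f3 fell by 0.44 ± 0.071 (adjusted p = 1.87e-05) and by 0.53 ± 0.070 (adjusted p = 1.11e-06), in the EV-proficient and EV-deficient derivative.

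The canonical repressors moved in opposite directions. E2f4, the main E2F of DREAM, was the most abundant member in every group. It measured 186, 206 and 192 CPM in EV-proficient DMSO and 130.0, 142 and 146 CPM in EV-proficient paclitaxel libraries. The EV-deficient libraries had 227, 219 and 221 CPM under DMSO and 87.6, 92.5 and 98.9 CPM under paclitaxel. The groups did not overlap, and E2f4 fell by 0.48 ± 0.064 (adjusted p = 1.11e-06) and by 1.26 ± 0.064 (adjusted p = 5.06e-13).

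E2f5, the other E2F that works with Rbl1 and Rbl2, rose in both derivatives, unlike the other 6 E2F members. It measured 18.7, 20.3 and 21.9 CPM in EV-proficient DMSO and 31.2, 26.6 and 32.9 CPM in EV-proficient paclitaxel libraries. The EV-deficient libraries held 22.2, 23.0 and 20.5 CPM and then 30.004, 26.0 and 23.4 CPM. The lowest paclitaxel library was close to the highest DMSO library, without overlap. The log2 fold change was 0.57 ± 0.10 (adjusted p = 5.27e-05) in the EV-proficient derivative and 0.27 ± 0.10 (adjusted p = 0.0220) in the EV-deficient derivative. The latter no longer passed without EV-deficient DMSO replicate 1 (0.27), DMSO replicate 3 (0.21) or paclitaxel replicate 1 (0.16). E2f5 overlaps an opposite-strand gene by 26 bases, and whether strand was used in counting is not stated.

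The atypical repressors both fell. E2f7 measured 80.7, 78.9 and 78.1 CPM in EV-proficient DMSO and 31.6, 32.8 and 26.5 CPM in EV-proficient paclitaxel libraries. The EV-deficient libraries had 67.5, 64.4 and 64.2 CPM and then 27.7, 24.1 and 37.7 CPM. The lowest DMSO library was well above the highest paclitaxel library. E2f7 fell by 1.38 ± 0.11 (adjusted p = 9.73e-10) and by 1.13 ± 0.11 (adjusted p = 1.15e-08).

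E2f8, its close relative, measured 91.8, 91.1 and 91.9 CPM in EV-proficient DMSO and 70.9, 65.2 and 77.4 CPM in EV-proficient paclitaxel libraries. In the EV-deficient derivative the values were 96.4, 97.9 and 99.1 CPM and then 40.2, 47.4 and 49.6 CPM. Each paclitaxel group lay below every DMSO library, and the EV-deficient paclitaxel group was below the EV-proficient one. E2f8 fell by 0.37 ± 0.075 (adjusted p = 0.000251) and by 1.10 ± 0.075 (adjusted p = 4.71e-11). E2f7 and E2f8 overlap opposite-strand genes by up to 86 and 610 bases, so some of their reads may not be their own.

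Of the pocket protein genes, Rbl2 and Rb1 rose in both derivatives and Rbl1 did not pass the test in either. Rbl2 codes for the pocket protein most tied to resting cells and to DREAM. It measured 21.2, 21.7 and 21.5 CPM in EV-proficient DMSO and 60.0, 52.9 and 63.9 CPM in EV-proficient paclitaxel libraries. The EV-deficient libraries had 22.8, 25.4 and 24.2 CPM and then 54.6, 60.3 and 51.3 CPM. Every paclitaxel library held more than double the level of any DMSO library. The log2 fold change was 1.45 ± 0.083 (adjusted p = 5.23e-12) and 1.20 ± 0.081 (adjusted p = 3.69e-11). Rbl2 overlaps 2 opposite-strand genes, Aktip and Gm45464, by up to 892 bases.

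Rb1, the retinoblastoma tumour suppressor, was the least abundant pocket protein gene in CPM. It measured 13.9, 10.7 and 9.48 CPM in EV-proficient DMSO and 16.9, 13.7 and 14.3 CPM in EV-proficient paclitaxel libraries, which overlapped. The EV-deficient libraries had 8.35, 7.46 and 8.004 CPM under DMSO and 21.1, 20.4 and 18.0 CPM under paclitaxel, without overlap. The log2 fold change was 0.40 ± 0.13 (adjusted p = 0.0111) in the EV-proficient derivative and 1.32 ± 0.13 (adjusted p = 8.82e-09) in the EV-deficient derivative. The first no longer passed without EV-proficient DMSO replicate 2 (0.36), DMSO replicate 3 (0.28) or paclitaxel replicate 1 (0.25). Rb1 overlaps Lpar6 and Rcbtb2 on the opposite strand by up to 488 bases, so part of its counts is uncertain.

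Rbl1, which is itself an E2F target in cycling cells, stayed within 38.6 to 40.6 CPM in the 6 DMSO libraries. It measured 44.2, 38.0 and 46.4 CPM in EV-proficient and 38.5, 31.9 and 35.7 CPM in EV-deficient paclitaxel libraries. Over both derivatives, the spread widened under paclitaxel and its range covered that of the DMSO libraries. In the EV-deficient derivative alone the groups narrowly did not overlap, with paclitaxel at most 38.5 CPM and DMSO at least 38.6 CPM. The log2 fold change was 0.11 ± 0.082 (adjusted p = 0.253) and -0.17 ± 0.081 (adjusted p = 0.0810), neither past the threshold. Leaving out 1 library gave 0.014 to 0.14 in the EV-proficient derivative. In the EV-deficient derivative Rbl1 passed as lower with no low-count filter (-0.20), without EV-proficient paclitaxel replicate 2 (-0.17) or without EV-deficient paclitaxel replicate 1 (-0.24), and its sign turned with upper-quartile scaling (0.019).

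**Figure D2:**
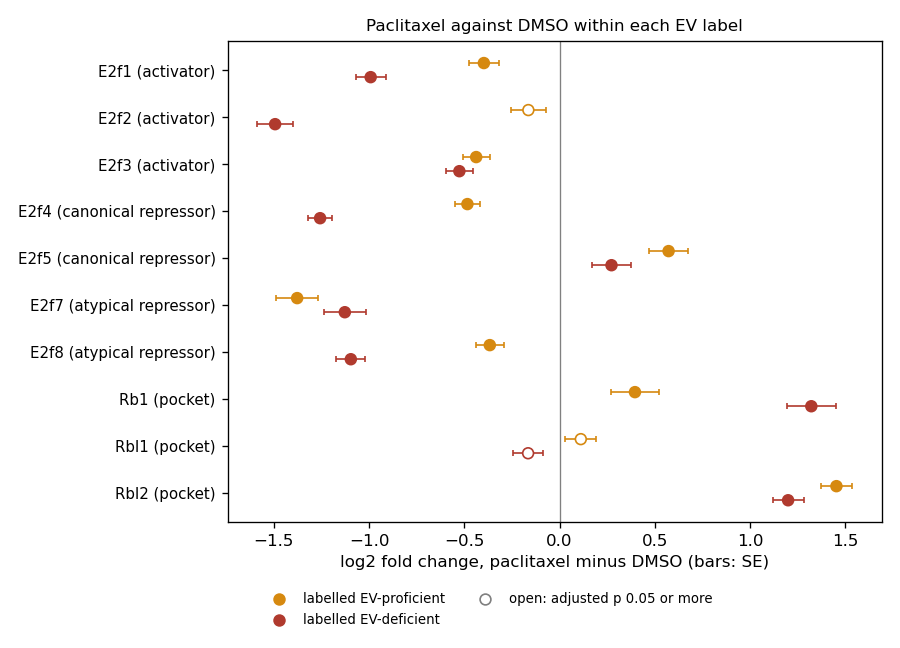
Log2 fold change of paclitaxel over DMSO for each gene within each EV label, with bars of 1 SE and 3 libraries per group. Filled points passed an adjusted p of 0.05. Only E2f5, Rb1 and Rbl2 have filled points to the right of 0, and Rbl1 is open in both derivatives.

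Averaged over both EV labels, 9 of 10 members passed the test, against 68.4% of all genes. Of these 3 were higher and 6 lower, against 37.1% of all genes higher and 31.3% lower. The averaged log2 fold changes were -0.69 for E2f1, -0.83 for E2f2, -0.48 for E2f3, -0.87 for E2f4, -1.25 for E2f7 and -0.73 for E2f8. Those of the risers were 0.42 for E2f5, 0.86 for Rb1 and 1.33 for Rbl2, while Rbl1 stood at -0.027 (adjusted p = 0.695). In 8 of 10 members the 6 paclitaxel and 6 DMSO libraries did not overlap, against 36.8% of all genes. The exceptions were Rb1 and Rbl1. The same 9 members passed when EV-proficient paclitaxel was set against EV-deficient DMSO (56.9% of all genes) and when EV-deficient paclitaxel was set against EV-proficient DMSO (61.4%). In the latter E2f5 (0.39) no longer passed without EV-deficient paclitaxel replicate 1 (0.23). Rbl1 (-0.16) passed there as lower when EV-deficient paclitaxel replicate 1 (-0.28) or 3 (-0.21) or any 1 EV-proficient paclitaxel library (-0.21 in each) was left out. In the former pairing Rbl1 (0.11) passed as higher with upper-quartile scaling (0.19). In these pairings E2f2 fell by 0.81 and by 0.85, and Rb1 had log2 fold changes of 0.92 and 0.80. These comparisons share libraries with the within-label ones and are no independent check.

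Under DMSO, the libraries labelled EV-deficient and EV-proficient differed in 3 of 10 members, against 23.0% of all genes tested. E2f2 was higher in EV-deficient libraries (log2 fold change 0.65 ± 0.092, adjusted p = 1.55e-05), as was E2f4 (0.19 ± 0.063, adjusted p = 0.0314). Rb1 was lower (-0.52 ± 0.13, adjusted p = 0.00526). In 6 of 10 members, these 3 among them, the groups did not overlap, against 43.3% of all genes. Of all genes, 12.4% were higher and 10.6% lower. The E2f4 call was lost with median-of-ratios (0.17) or upper-quartile scaling (0.16), and when any library other than EV-proficient DMSO replicate 2 was left out (0.15 to 0.21). The Rb1 call was lost without EV-proficient DMSO replicate 1 (-0.34), the library with the highest Rb1 level under DMSO, and 1 member was then called. E2f7 was 65.4 ± 1.88 CPM (SD, n = 3) in EV-deficient and 79.2 ± 1.35 CPM in EV-proficient DMSO libraries, without overlap, and missed the threshold (-0.28 ± 0.11, adjusted p = 0.0704). It passed in DESeq2 (-0.30) and limma-voom (-0.28), with no low-count filter (-0.24), with only these 2 groups in the fit (-0.31), and without EV-proficient paclitaxel replicate 2 or 3 or EV-deficient paclitaxel replicate 2 or 3 (-0.32 in each).

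Under paclitaxel 6 of 10 members differed between the labels, against 37.8% of all genes, 1 higher (16.0%) and 5 lower (21.8%). Rb1 was higher in EV-deficient libraries (0.41 ± 0.12, adjusted p = 0.0131). E2f1 (-0.58 ± 0.079, adjusted p = 7.38e-06), E2f2 (-0.68 ± 0.095, adjusted p = 8.73e-06), E2f4 (-0.58 ± 0.064, adjusted p = 4.36e-07) and E2f8 (-0.64 ± 0.076, adjusted p = 1.18e-06) were lower. Rbl1 was also lower (-0.27 ± 0.081, adjusted p = 0.0114), although its groups overlapped. The Rb1 call was lost without EV-proficient paclitaxel replicate 2 (0.35) or EV-deficient paclitaxel replicate 1 (0.35). The Rbl1 call was lost without EV-proficient paclitaxel replicate 3 (-0.22), without EV-deficient paclitaxel replicate 2 (-0.19), with upper-quartile scaling (-0.18) and with only these 2 groups in the fit (-0.25). E2f5 and E2f7 passed as lower only without EV-deficient paclitaxel replicate 1 (-0.29) and replicate 3 (-0.23). E2f3 and Rbl2 did not pass (-0.015 ± 0.071 and -0.087 ± 0.079).

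**Figure D3:**
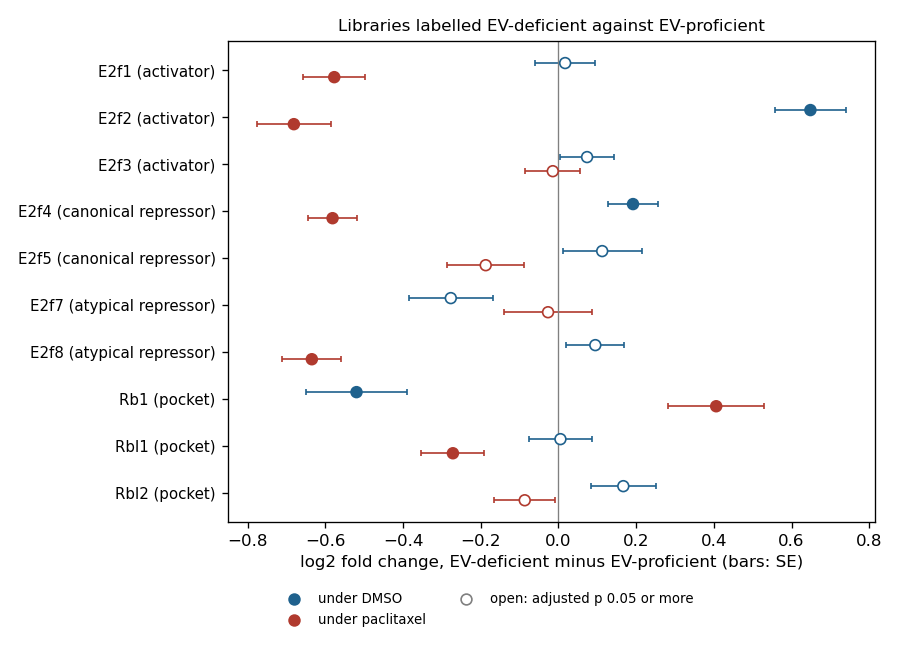
Log2 fold change of libraries labelled EV-deficient over those labelled EV-proficient, under DMSO and under paclitaxel, with bars of 1 SE and 3 libraries per group. Filled points passed an adjusted p of 0.05. E2f2 lies at 0.65 under DMSO and at -0.68 under paclitaxel, and Rb1 at -0.52 and 0.41.

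The interaction, the paclitaxel effect in EV-deficient minus that in EV-proficient libraries, passed in 5 of 10 members, against 40.7% of all genes. It was positive in 1 (16.9% of all genes) and negative in 4 (23.8%). E2f2 had the most negative interaction (-1.33 ± 0.13, adjusted p = 5.61e-08). E2f4 (-0.77 ± 0.090, adjusted p = 5.22e-07), E2f8 (-0.73 ± 0.11, adjusted p = 9.85e-06) and E2f1 (-0.59 ± 0.11, adjusted p = 0.000175) were also negative, and Rb1 was positive (0.93 ± 0.18, adjusted p = 0.000261). The interaction did not pass for E2f3 (-0.088 ± 0.10), E2f5 (-0.30 ± 0.14), E2f7 (0.25 ± 0.16), Rbl1 (-0.28 ± 0.11) or Rbl2 (-0.25 ± 0.12). With no low-count filter 8 members passed, E2f5, Rbl1 and Rbl2 being added. E2f5 also passed without EV-deficient paclitaxel replicate 1 (-0.36), Rbl1 without that library (-0.30) or EV-proficient paclitaxel replicate 2 (-0.31), and E2f7 without EV-deficient paclitaxel replicate 2 (0.43). Over all fits with 1 library left out, the E2f5 interaction was -0.37 to -0.17 and that of E2f7 0.084 to 0.43. Those of Rbl1 and Rbl2 were both -0.31 to -0.16. E2f2 was called between the EV labels in both treatments under every alternative run, with opposite signs under DMSO and paclitaxel, and dngfr reads changed sides between the same groups. The EV label and that crossing cannot be told apart in these libraries.

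Levels of different genes were compared per kilobase of merged exon (CPM per kilobase). E2f4 led every group, at 79.4 ± 4.22 and 90.7 ± 1.64 (SD, n = 3) in EV-proficient and EV-deficient DMSO libraries and 56.8 ± 3.39 and 37.9 ± 2.31 under paclitaxel. E2f8, E2f1 and E2f5 came next under DMSO, in that order and without overlap between neighbours. Under paclitaxel E2f5 moved to the second place, at 17.0 ± 1.82 and 14.9 ± 1.86, and E2f8 and E2f1 overlapped behind it. Rb1 was the lowest of all 10 under DMSO, at 1.89 ± 0.377 and 1.32 ± 0.0743. In EV-deficient paclitaxel libraries E2f2 took the last place, at 1.82 ± 0.136, below Rb1 at 3.30 ± 0.269. Rbl2 rose from ninth place in both DMSO groups, at 2.84 ± 0.0339 and 3.19 ± 0.176, to the fifth under paclitaxel, at 7.80 ± 0.739 and 7.33 ± 0.603. Part of this order depended on the length used. With the longest transcript in place of merged exons, E2f8 kept the second place in EV-proficient paclitaxel libraries at 19.3 ± 1.65, overlapping E2f5 at 17.0 ± 1.82, and E2f7 came before E2f5 in EV-proficient DMSO libraries (14.5 ± 0.246 against 11.4 ± 0.908). Rbl2 then held the eighth and the ninth place under DMSO and the fifth and the fourth under paclitaxel. The places of E2f4, of Rb1 under DMSO and of E2f2 in EV-deficient paclitaxel libraries were the same with both lengths.

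The summed level per kilobase of the 7 E2F genes was 144 ± 4.53 and 158 ± 1.48 under DMSO and 111 ± 4.36 and 80.5 ± 2.73 under paclitaxel (EV-proficient and EV-deficient, SD, n = 3). The ratio of activators to all 4 repressors moved less, by -0.013 and 0.086 on the log2 scale, and by 0.13 and 0.19 on CPM without length. Its mean log2 value was -2.09 ± 0.051 and -2.10 ± 0.033 under DMSO, and -2.10 ± 0.089 and -2.02 ± 0.029 under paclitaxel. Activators made up 19.1% and 18.9% of the E2F sum under DMSO and 18.9% and 19.8% under paclitaxel. In the EV-proficient derivative the ratio overlapped between treatments, and in the EV-deficient derivative all 3 paclitaxel libraries lay slightly above all 3 DMSO libraries. This ratio carries no test, since its members were chosen.

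The make-up among the repressors changed. E2f5 held 7.91% ± 0.582 and 7.77% ± 0.454 of the E2F sum under DMSO and 15.2% ± 1.498 and 18.5% ± 2.84 under paclitaxel. E2f4 went from 55.2% ± 1.21 and 57.4% ± 0.538 to 51.0% ± 1.56 and 47.1% ± 1.498. No paclitaxel library reached the E2f4 share of a DMSO library, and no DMSO library reached the E2f5 share of a paclitaxel library. The log2 ratio of activators to the canonical repressors E2f4 and E2f5 was -1.73 ± 0.069 and -1.78 ± 0.038 under DMSO. Under paclitaxel it was -1.81 ± 0.087 and -1.73 ± 0.050, with overlap between treatments in both derivatives. The ratio of activators to the atypical repressors E2f7 and E2f8 was 0.097 ± 0.019 and 0.24 ± 0.011 on the log2 scale under DMSO and 0.36 ± 0.12 and 0.45 ± 0.12 under paclitaxel. Without E2f4, the ratio of activators to repressors was -0.43 ± 0.044 and -0.33 ± 0.037 under DMSO and -0.66 ± 0.16 and -0.74 ± 0.077 under paclitaxel. The EV-proficient groups overlapped, with paclitaxel replicate 2 at -0.48, and the EV-deficient groups did not.

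Among the pocket proteins, Rbl2 took the place of Rbl1 as the leading transcript. Rbl1 was 58.3% ± 1.78 and 59.5% ± 0.757 of the pocket protein sum under DMSO and 40.99% ± 0.630 and 35.7% ± 3.33 under paclitaxel. Rbl2 was 25.1% ± 0.992 and 28.6% ± 1.25 under DMSO and 44.7% ± 0.847 and 44.3% ± 3.03 under paclitaxel. Rb1 was 16.6% ± 2.77 and 11.9% ± 0.857, then 14.3% ± 1.40 and 19.95% ± 0.786. All 6 paclitaxel libraries had more Rbl2 than Rbl1 per kilobase, and all 6 DMSO libraries had less. The pocket protein sum relative to the E2F sum was 0.0788 and 0.0704 under DMSO and 0.156 and 0.206 under paclitaxel, as a linear ratio.

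**Figure D4:**
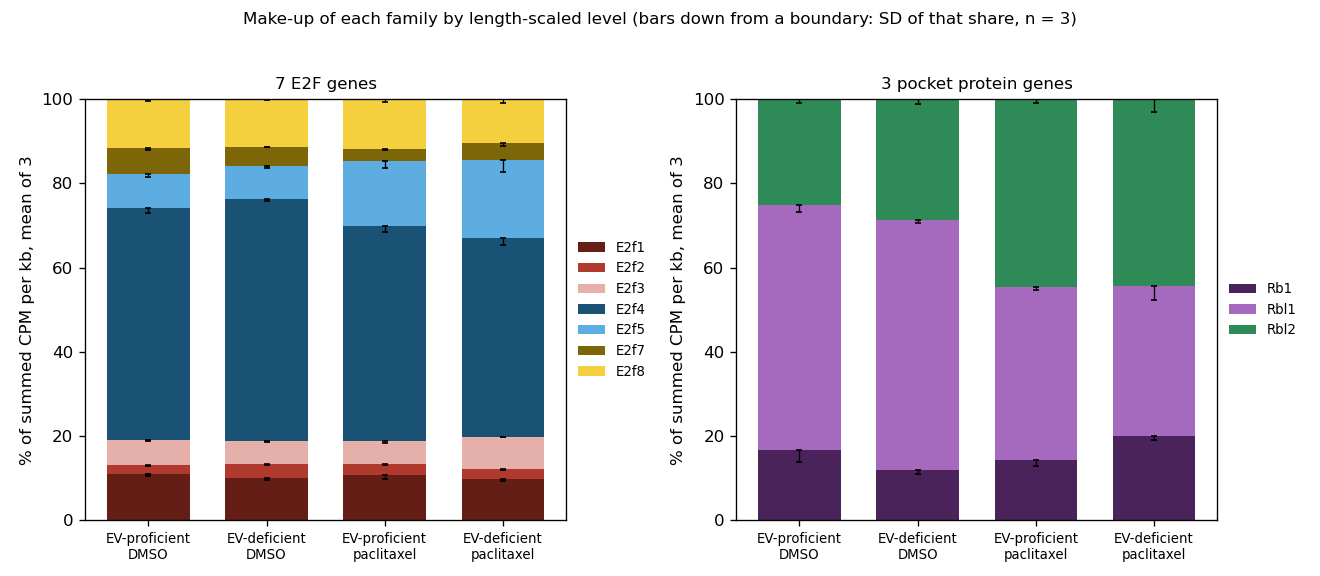
Share of each gene in the summed CPM per kilobase of the 7 E2F genes (left) and the 3 pocket protein genes (right), in percent, as means of 3 libraries, with the SD of each share drawn down from its upper edge. The E2f5 band widens from 7.91% and 7.77% under DMSO to 15.2% and 18.5% under paclitaxel, and the Rbl2 band from 25.1% and 28.6% to 44.7% and 44.3%.

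The genes with the most similar profiles were found by the root mean square difference of centred log2 CPM over the 12 libraries, among 9860 genes. For Rbl2 they were Ccng2 (0.11) and Capn5 (0.12), and for E2f7 Rtel1 (0.074) and Smyd5 (0.091). E2f4 was closest to Lig1 (0.051) and Lrrc47 (0.052), E2f8 to Troap (0.077) and Rbm14 (0.087), and E2f1 to Src (0.061) and Slc52a2 (0.071). For E2f2 they were Tnni2 (0.11) and Tle4 (0.12), and for E2f3 Mettl3 (0.054) and Ubap2l (0.055). E2f5 was closest to Fbxo8 (0.071) and Akirin2 (0.079), Rb1 to Stxbp3 (0.090) and Pgap1 (0.092), and Rbl1 to Alg10b (0.057) and Jade3 (0.067).

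The DP partners moved in opposite directions. Tfdp1 measured 336 ± 19.9 and 386 ± 9.93 CPM under DMSO and 216 ± 10.9 and 160 ± 14.7 CPM under paclitaxel (EV-proficient and EV-deficient, SD, n = 3). It fell by 0.64 and by 1.27. Tfdp2 measured 14.7 ± 0.260 and 13.6 ± 0.692 CPM and then 33.8 ± 1.35 and 28.97 ± 2.66 CPM, with log2 fold changes of 1.20 and 1.09. E2f6, a repressor E2F that binds no pocket protein, fell by 0.76 in the EV-proficient and was higher by 0.21 in the EV-deficient derivative (adjusted p = 0.0353), and its interaction was 0.97 ± 0.12 (adjusted p = 1.13e-06, edgeR). Averaged over both labels, the log2 fold changes were -0.95 for Tfdp1, 1.15 for Tfdp2 and -0.28 for E2f6. The E2f6 rise was lost with no low-count filter and when any 1 of 7 libraries was left out (each EV-proficient DMSO library, EV-deficient DMSO replicates 2 and 3, and EV-deficient paclitaxel replicates 1 and 2).

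Of 7 genes of the MuvB core and its mitotic partners, 3 were lower and 2 higher in the EV-proficient derivative and 5 lower in the EV-deficient one. Of all genes, 27.1% were lower and 31.1% higher in the former and 30.5% lower in the latter, so the EV-proficient count of higher genes lay near the share of all genes. In the average of both labels 5 were lower and 1 higher, against 31.3% and 37.1% of all genes, the count of higher genes being 0 to 2 over the alternatives. The median log2 fold changes were -0.19 and -0.33. Mybl2, the B-Myb factor that MuvB binds in S phase, fell by 1.37 and by 1.90, and Foxm1 fell by 0.64 and by 1.13. The MuvB subunit Rbbp4 fell by 0.68 in the EV-deficient derivative, while Lin37 and Lin52 were higher in the EV-proficient one, by 0.39 and 0.30. The count of higher genes in the EV-proficient derivative was 0 without EV-proficient DMSO replicate 1. It was 1 with median-of-ratios scaling, and also without EV-proficient DMSO replicate 3 or any 1 of the 6 paclitaxel libraries. The count of lower genes there was 5 without any 1 EV-deficient paclitaxel library, and in the EV-deficient derivative it was 3 with upper-quartile scaling.

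Among 15 genes for pocket protein kinases, their cyclins and their inhibitors, 8 were higher and 5 lower in the EV-proficient derivative. In the EV-deficient one 5 were higher and 8 lower (medians 0.18 and -0.39). This compares with 31.1% of all genes higher and 27.1% lower in the EV-proficient derivative, and 32.4% and 30.5% in the EV-deficient one. Upper-quartile scaling gave 7 higher and 7 lower in the latter. In the label average 6 were higher and 5 lower, near the shares of all genes, 37.1% and 31.3%. The largest rises were in inhibitor genes: Cdkn1c had log2 fold changes of 2.33 and 1.95 from at most 0.771 CPM under DMSO, Cdkn2b of 1.68 and 1.06, Cdkn1b of 0.82 and 0.82, and Cdkn2a of 0.91 and 0.41. Cdkn2d was also higher in the EV-deficient derivative (0.28). Other inhibitor genes did not share this: Cdkn1a was higher in the EV-proficient derivative (0.43) and fell by 0.41 in the EV-deficient one, and Cdkn2c fell by 0.39 in the latter. Cdk6 and Ccnd1, a kinase and a cyclin that phosphorylate pocket proteins together, were higher in the EV-proficient derivative (0.62 and 0.30), and Cdk6 fell by 0.44 in the EV-deficient one. The cyclin genes that start S phase fell, Ccne2 by 1.45 and by 1.51 and Ccne1 by 0.51 and by 1.77. Ccnd3 fell by 0.87 and by 1.05, Cdk4 by 0.27 and by 1.24, and Cdk2 by 0.35 and by 0.64. The interaction passed in 9 of the 15, all negative (23.8% of all genes), led by Ccne1 (-1.26), Cdk6 (-1.06) and Cdk4 (-0.97). That count was 5 with upper-quartile scaling and 5 without EV-proficient paclitaxel replicate 1.

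Of 24 textbook E2F targets of the G1/S transition, 22 were lower in the EV-proficient and 24 in the EV-deficient derivative, and none was higher. This compares with 27.1% and 30.5% of all genes lower. Averaged over both labels, all 24 were lower (31.3% of all genes). The median log2 fold changes were -0.74 and -1.38. The replication licensing factor Cdc6 fell by 1.80 and by 2.32, from 93.0 ± 6.65 and 107 ± 6.83 CPM to 26.6 ± 0.563 and 21.4 ± 5.61 CPM (SD, n = 3). Tyms (thymidylate synthase) and Orc1 (origin recognition) fell by 1.54 and 1.41 in the EV-proficient derivative, and Mcm5 (replicative helicase) and Tk1 (thymidine kinase) by 2.25 and 1.93 in the EV-deficient derivative. Cdt1 and Gins1 did not pass in the EV-proficient derivative (0.13 and -0.23), and without EV-proficient DMSO replicate 3 the list had 1 higher gene there. Upper-quartile scaling gave the same counts, 22 and 24 lower, and 13 in place of 19 negative interactions. The interaction passed as negative in 19 of 24, against 23.8% of all genes, led by Cdt1 and Tk1, both at -1.33, and Mcm5 at -1.08.

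Of 12 mitotic genes bound by DREAM, 5 were lower and 3 higher in the EV-proficient derivative, and 10 lower and 1 higher in the EV-deficient one, with medians of -0.14 and -0.65. Of all genes, 27.1% were lower and 31.1% higher in the former, and 30.5% and 32.4% in the latter. The average of both labels had 9 lower and 2 higher, against 31.3% and 37.1% of all genes. Birc5 (survivin) fell by 1.05 and by 1.38. Kif23, a midzone kinesin, fell by 0.53 in the EV-proficient derivative, and the kinases Plk1 and Aurka fell by 0.95 and 0.88 in the EV-deficient one. Nusap1 rose in both (0.58 and 0.78), and Ccnb2 and Cenpa were higher in the EV-proficient derivative (0.48 and 0.34). In the EV-proficient derivative 8 were lower with median-of-ratios scaling, in DESeq2, and without EV-proficient paclitaxel replicate 3 or any 1 EV-deficient paclitaxel library. In the EV-deficient derivative 2 were higher with upper-quartile scaling or a filter of 1 CPM in 3 libraries. The G1/S and mitotic lists are known targets in general, and their binding was not measured here.

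**Figure D5:**
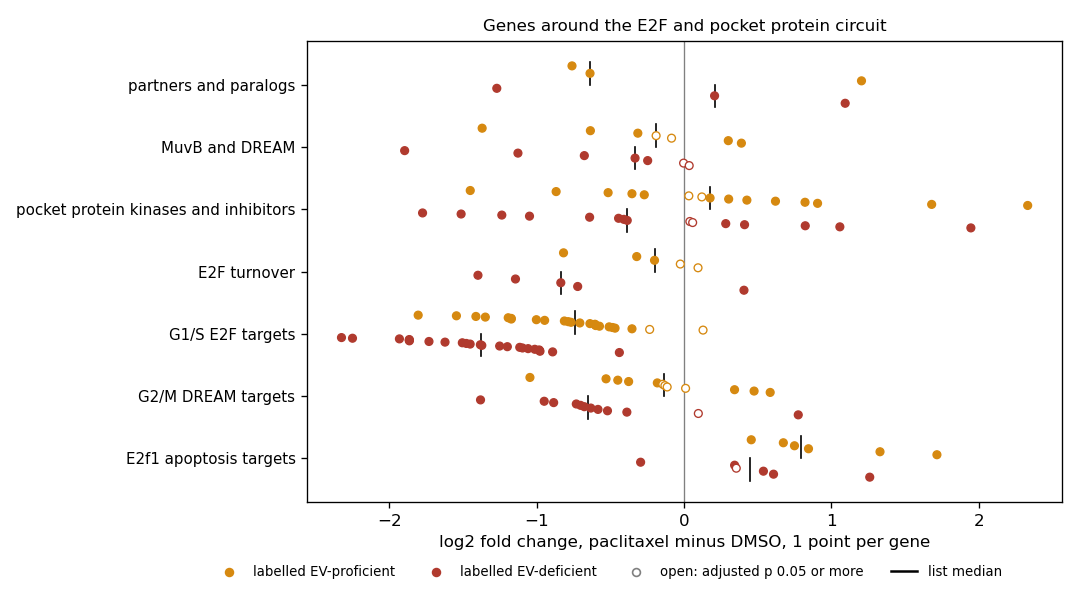
Log2 fold change of paclitaxel over DMSO within each EV label for 72 tested genes of 7 lists around the E2F and pocket protein circuit. Each point is a gene, filled where its adjusted p was under 0.05, and black bars are list medians. All 24 G1/S targets are left of 0 in the EV-deficient derivative, and the E2f1 apoptosis targets have medians of 0.80 and 0.45.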

How the data were processed

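A stranded kit was used to sequence polyadenylated RNA of 12 MOC2 cultures (per the labels). Deposited values are whole read counts per gene, not normalized. The submitters' processing notes name STAR 2.5.0a and GRCm38, while the counting program, the annotation and the use of strand are not given in the sources used here. The 2 rows the authors added (gfp, at 0 throughout, and dngfr, at most 0.00142% of counts) were left out of library sizes and tests.

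The count test used edgeR 4.0.16 under R 4.3.3, with filterByExpr (minimum count 10), TMM scaling and 1 quasi-likelihood model over all 12 libraries with a mean per group. P-values were adjusted by Benjamini-Hochberg over 18108 genes (threshold 0.05). Fold changes are log2, and each SE was derived from the F statistic. Exon lengths and overlaps came from a GENCODE annotation of GRCm38, and promoters from RefSeq. No replicate pair agreed within sampling noise (chi-square per degree of freedom 4.49 to 31.3). The model was also run on simulated counts in which only a small share of genes changed. Under paclitaxel most genes tested changed, so that run is no check of the scaling here.

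All 10 members were named whatever their values. In the other lists, per comparison, up to 3 genes with the largest change past the threshold and genes against the list's majority were named. Exceptions, named after their values were seen, are second values given for comparison and Cdt1, Gins1, Cdkn1a, Cdkn2c, Cdk6 and Ccnd1. Some genes that this rule selects are not reported here. The members, lists and motif words were chosen with earlier results of these data known. The averaged and cross-label comparisons, the ratio without E2f4 and the order of levels by longest transcript were added after the data were seen.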

Additional observations from a re-analysis of the deposited data

Results flagged for a closer look

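The paclitaxel effect differed between libraries labelled EV-deficient and EV-proficient in 5 of the 10 genes, by the interaction test of edgeR. The differences in log2 fold change were -0.59 for E2f1, -1.33 for E2f2, -0.77 for E2f4, -0.73 for E2f8 and 0.93 for Rb1, and 40.7% of all genes tested had such a difference.

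The row added for dngfr, which no comparison uses, had reads in every library, with 93 counts in the lowest. Its level crossed the EV labels between DMSO and paclitaxel, and what this means for the labels was not tested.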

How the results depend on the processing

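Results across genes were recomputed with 2 other scalings (upper-quartile, median-of-ratios), without a low-count filter or with 1 CPM in 3 libraries as the minimum, in DESeq2 1.42.0 and limma-voom 3.58.1, with a replicate block and after removing each library. The 4 comparisons of 2 groups named in the design were also refitted on those groups alone, which was not run for the interaction, the average or the cross-label comparisons. The ratios of activators to repressors were recomputed with 3 other settings and without each of 6 libraries. No called member changed sign in any of them. Calls were kept in every alternative run for 7 of 8 members under paclitaxel in the EV-proficient derivative, 8 of 9 in the EV-deficient derivative, 1 of 3 between EV labels under DMSO, 4 of 6 under paclitaxel, 5 of 5 in the interaction, 9 of 9 in the average, 9 of 9 for EV-proficient paclitaxel against EV-deficient DMSO and 8 of 9 for EV-deficient paclitaxel against EV-proficient DMSO.

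Among the 10 genes, signs turned only where they were not called. Between EV labels under DMSO, E2f1 was -0.00487 under median-of-ratios, -0.010 under upper-quartile scaling, -0.00491 in DESeq2 and -0.015 with only the groups compared. Rbl1 was -0.017, -0.023, -0.017 and -0.027 in the same settings and -0.00544 with the 1 CPM filter. Under paclitaxel E2f3 was 0.00625, 0.081, 0.0060 and 0.012 in those settings and 0.026 with the 1 CPM filter, E2f7 was 0.069 and Rbl2 0.0084 with upper-quartile scaling, and E2f7 was 0.015 with the 1 CPM filter. Upper-quartile scaling also gave 0.035 for the E2f3 interaction, 0.019 for Rbl1 under paclitaxel in the EV-deficient derivative and 0.095 for its average, which was 0.011 with the 1 CPM filter. Leaving out 1 library gave -0.023 to 0.061 for E2f1 and -0.035 to 0.032 for Rbl1 under DMSO, and -0.044 to 0.030 for E2f3 and -0.23 to 0.11 for E2f7 under paclitaxel.

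Between EV labels under DMSO, leaving out 1 library left 1 to 3 members called, and the interaction had 8 without the low-count filter. The paclitaxel shift of the log2 ratio of activators to repressors, -0.013 and 0.086 in the EV-proficient and EV-deficient derivative, became 0.13 and 0.19 on CPM without length, 0.13 in the latter with the longest transcript's length, and -0.23 and -0.41 without E2f4. Leaving out 1 library gave -0.057 (EV-proficient paclitaxel replicate 2) to 0.032 (replicate 3) in the EV-proficient derivative, where the sign also turned without DMSO replicate 1 (0.015) and with the longest transcript (0.027), and 0.068 to 0.10 in the EV-deficient one. The cause was not tested. Upper-quartile scaling moved the median of all genes under paclitaxel in the EV-deficient derivative from 0.075 to 0.26, and the higher share of calls from 51.5% to 63.4% there, from 42.4% to 58.2% between labels under paclitaxel and from 41.4% to 53.9% in the interaction.

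Replicate numbers did not clearly pair the samples: correlations of same-numbered deviations were -0.081 to 0.097, and 6 of 12 matched their own number best. Between paclitaxel and DMSO in the EV-deficient derivative, replicates 1, 2 and 3 each matched their own number best (0.051, 0.016 and 0.019). Pairing is therefore not excluded. With the replicate number as a block, 8, 9, 3, 6 and 5 members were called in the 5 planned comparisons, as without it. Depth was lowest for Rb1, with 324 reads in its lowest library.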

Other observations

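A list of 5 genes was chosen for E2F turnover, which was not measured here. Of these, 3 were lower in the EV-proficient derivative, and 4 were lower and 1 higher in the EV-deficient one. This compares with 27.1% and 30.5% of all genes lower, and 32.4% higher in the EV-deficient derivative. In the label average 4 were lower and 1 higher, against 31.3% and 37.1% of all genes. Ccnf, the cyclin F subunit of a ubiquitin ligase, fell by 0.82 and by 1.40, and Skp2, an F-box protein, by 0.32 and by 1.14. Cdc20, an activator of the anaphase-promoting complex, fell by 0.20 in the EV-proficient derivative, and its relative Fzr1 by 0.84 in the EV-deficient one. Uhrf2 was higher in the EV-deficient derivative (0.41). With upper-quartile scaling 1 gene was higher and 2 lower in the EV-proficient derivative.

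Of 7 apoptosis genes known as E2f1 targets, 6 were tested and Trp73 was below the count filter. All 6 were higher in the EV-proficient derivative, while E2f1 itself was lower, and 4 were higher and 1 lower in the EV-deficient one. This compares with 31.1% and 32.4% of all genes higher, and with 30.5% lower in the EV-deficient derivative. Averaged over both labels, all 6 were higher (37.1% of all genes). Bcl2l11 (Bim) had log2 fold changes of 1.72 and 1.26. Apaf1 was higher in the EV-deficient derivative (0.61), whereas Pmaip1 (Noxa) fell by 0.29 in the latter. With upper-quartile scaling 5 were higher and 0 lower there.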
